A study of Mus musculus with 6 samples.

Results

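The NMDA and delta glutamate receptor genes Grin1, Grin2a, Grin2b, Grin2c, Grin2d, Grin3a, Grin3b and Grid1 were examined for peaks of ERα, the estrogen receptor encoded by Esr1, in mouse brain. A peak was taken as theirs when it lay inside the RefSeq span of the gene, or within 100 kb of it with that gene as the nearest protein-coding gene. Overlapping or touching peaks of the 6 peak lists were merged into regions, and these 8 genes of 21887 protein-coding genes received 49 of 39374 regions, from 62 of 82442 peaks. The peaks come from CUT&RUN, in which an antibody against ERα tethers a nuclease that cuts out the DNA around the bound protein in isolated nuclei. All mice were adult C57/BL6 males whose gonads had been removed at 10 to 12 weeks of age. After 3 weeks they received 5 µg estradiol benzoate under the skin (3 libraries) or corn oil as vehicle (3 libraries), and nuclei of limbic tissue were prepared 4 hours later. The labels of replicate 3 of both groups name the treatment in the sample title alone and give the tissue as brain, with the limbic system as source. Limbic tissue holds many cell types, so binding in fewer nuclei and weaker binding per nucleus cannot be told apart. Whether each library stands for a different animal is not stated in the labels, so p-values reflect library-to-library variation that can be technical.

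NMDA receptors are ion channels gated by glutamate that admit calcium when the membrane is already depolarized, and they start many forms of synaptic plasticity. Each holds the obligatory GluN1 subunit (Grin1), which binds glycine or D-serine, joined to GluN2 subunits (Grin2a to Grin2d), which bind glutamate and set how long the channel stays open, or to GluN3 subunits (Grin3a and Grin3b), which bind glycine. The delta receptor GluD1 (Grid1) is related to them in sequence and connects to presynaptic neurexins through secreted cerebellins. ERα is a transcription factor that estradiol activates, and it binds DNA at estrogen response elements or through other factors.

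The lists differed in length, which bears on every count. They held 5421, 13717 and 20541 peaks in vehicle replicates 1, 2 and 3, and 11082, 14123 and 17558 in estradiol replicates 1, 2 and 3. Vehicle replicate 1 thus had by far the shortest list. Peak height is given as −log10 q, the caller's adjusted significance within a list, and as the number of fragments at the summit, estimated from the deposited fold and p-value. The smallest summit called in any library held 4 fragments, so a gene without a listed peak is not shown to lack binding.

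Of the 4 members with a promoter window in the reference table, 1 had a peak there. At Grin1 (chr2:25291177-25319187, minus strand), estradiol replicate 2 had a peak at chr2:25319188-25319294, which covers positions -1 to -107 from the annotated start. Its −log10 q was 5.12, from 6 fragments, and the other 5 libraries had none. The window from 250 bases before to 50 after that start is shown because it is the one member promoter in the RefSeq table (GRCm38.p6, the coordinates of mm10) that overlaps a region. It is chr2:25319138-25319437, read on the minus strand, with the bases under the peak in capitals.
Grin1 promoter: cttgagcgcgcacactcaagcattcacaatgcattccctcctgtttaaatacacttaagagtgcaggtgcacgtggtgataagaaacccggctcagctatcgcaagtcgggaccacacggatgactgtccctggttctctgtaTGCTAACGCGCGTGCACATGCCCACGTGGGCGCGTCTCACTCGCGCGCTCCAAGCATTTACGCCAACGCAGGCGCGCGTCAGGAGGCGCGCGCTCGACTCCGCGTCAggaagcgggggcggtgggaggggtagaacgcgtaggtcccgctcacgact
This window holds 33 CG dinucleotides, more than 88.7% of the 21263 promoter windows in the table, whose median is 13. Neither the full estrogen response element GGTCANNNTGACC nor its half-site GGTCA was found in it on either strand. Those motifs occur in 0.0517% and 39.4% of the promoter windows. Every full element also counts as half-site matches. The AP-1 motif TGANTCA, in 6.99% of windows, was not found either, and the GC box GGGCGG, in 46.2%, occurred once, outside the bases under the peak. Of all promoter windows 33.3% overlapped a region, and 10.0% overlapped a region with peaks in all 6 libraries. The windows of Grin2c, Grin2d and Grin3b overlapped no region.

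Grin2b (chr6:135713221-136173615), which encodes the GluN2B subunit prominent in the developing forebrain, held 25 of the 49 regions. It was followed by Grin2a, whose GluN2A subunit gives faster channels, with 13, and by Grid1 with 7. Grin3a had 2 regions, Grin1 and Grin2c had 1 each, and Grin2d and Grin3b had none. This order follows gene length in part. The spans of Grid1, Grin2b, Grin2a and Grin3a are 763, 460, 428 and 184 kb, and those of Grin2d, Grin1, Grin2c and Grin3b are 39.3, 28.0, 18.1 and 6.79 kb. Over all protein-coding genes, span and number of regions had a Spearman correlation of 0.50, given as a description since the genes share the 6 lists.

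**Figure D1:**
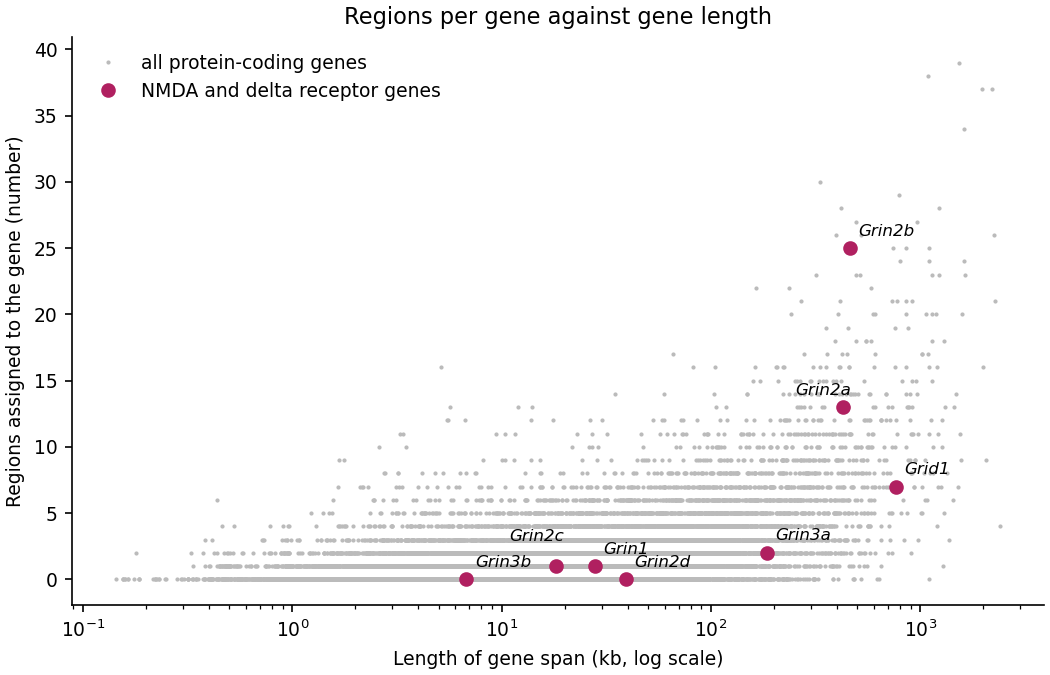
Number of regions assigned to each protein-coding gene (y axis) against the length of its span in kb (x axis, log scale); grey points are all genes and red points the 8 receptor genes. Grin2b, with 25 regions, lies near the top of the genes of its length, Grin2a with 13 lies above most, and the longer Grid1 with 7 lies lower.

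Each member was set beside the genes whose span was within a factor of 1.5 of its own. Among 415 genes of the length of Grin2b the median was 6 regions (quartiles 4 and 10), 98.3% had fewer than Grin2b and 5 had more. Inside the span alone Grin2b held 17 regions against a median of 5, and 12 genes had more. Grin2a held 13 against a median of 6 over 456 genes, of which 58 had more. Grid1 lay below the median of its class, with 7 regions against 9 over 187 genes. Grin3a had 2 against a median of 3, and Grin1 and Grin2c had 1 against 1. Grin2d and Grin3b had 0 against a median of 1. Inside the span alone the class median was 1 for Grin2d and 0 for Grin3b. The rank of Grin2b varied between libraries. Its 6 peaks in vehicle replicate 1 were the highest count in its class, where the median gene had 0. In vehicle replicates 2 and 3, also with 6 peaks each, 95.4% and 83.1% of the class had fewer. In estradiol replicates 1, 2 and 3, with 2, 8 and 6 peaks, the shares were 60.7%, 96.6% and 86.3%.

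The number of peaks at the 8 genes did not separate the groups. It was 7, 9 and 14 in vehicle replicates 1, 2 and 3, and 3, 14 and 15 in estradiol replicates 1, 2 and 3. The groups overlapped, and estradiol replicate 1 was the lowest of all. The means were 10.0 ± 3.61 (SD, n = 3) with vehicle and 10.7 ± 6.66 (SD, n = 3) with estradiol, a difference of 0.667 (two-sided exact permutation p = 0.9, smallest possible 0.1). The difference was 0.5 within replicates 1 and 2 and 1 in replicate 3, which has 1 library per group. Leaving out vehicle replicate 1 turned it to -0.833; it was -1.0 without estradiol replicate 2, -1.5 without estradiol replicate 3 and 4.5 without estradiol replicate 1.

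Per 10000 listed peaks, the 8 genes had 12.9, 6.56 and 6.82 peaks with vehicle and 2.71, 9.91 and 8.54 with estradiol, in replicate order. The highest and the lowest value thus both fell in replicate 1. The means were 8.76 ± 3.60 (SD, n = 3) and 7.05 ± 3.83 (SD, n = 3), a difference of -1.71 (two-sided exact permutation p = 0.6). It was -3.43 within replicates 1 and 2 and 1.73 in replicate 3, and it was positive, at 0.366, once vehicle replicate 1 was left out, and at 0.465 once estradiol replicate 1 was. Without Grin2b it was 0.783 (two-sided exact permutation p = 0.7).

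**Figure D2:**
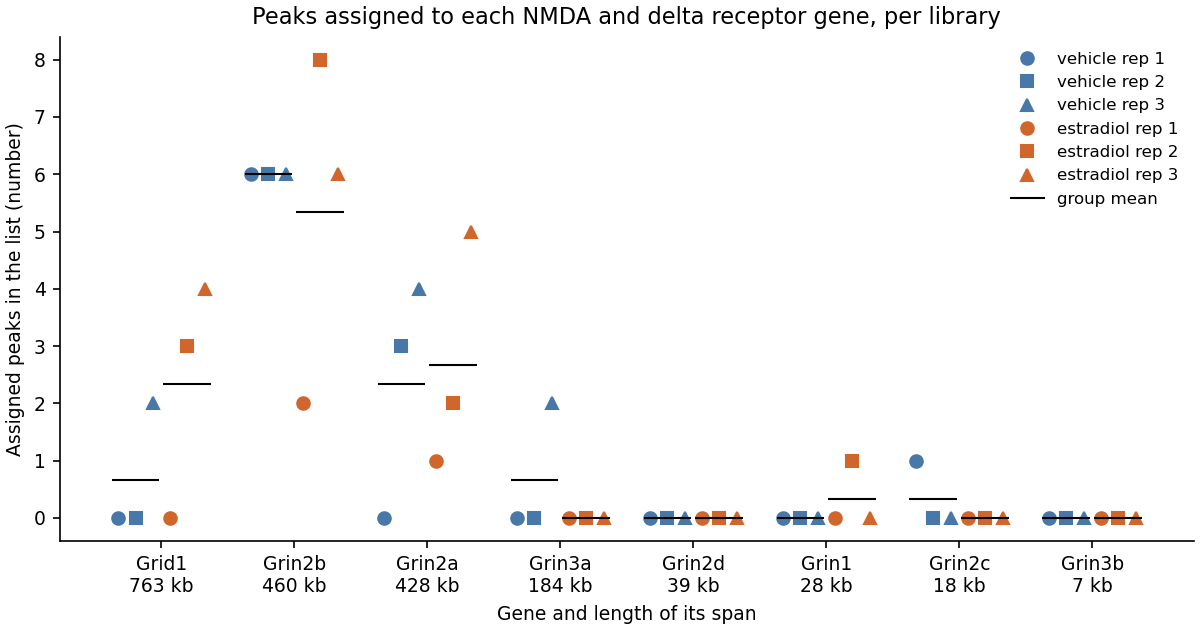
Number of peaks assigned to each gene (y axis) in each of the 6 libraries, with genes ordered by span length along the x axis; blue is vehicle, orange is estradiol, symbols mark replicates 1 to 3 and black bars the group means. The groups overlap at every gene, with 6 peaks at Grin2b in each vehicle library and 2, 8 and 6 in the estradiol libraries.

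By gene, Grin2b had 6, 6 and 6 peaks with vehicle and 2, 8 and 6 with estradiol. Its level per 10000 listed peaks was 6.12 ± 4.35 with vehicle and 3.63 ± 1.94 with estradiol (SD, n = 3 each; exact permutation p = 0.6). Grin2a had 0, 3 and 4 peaks with vehicle and 1, 2 and 5 with estradiol, or 1.38 ± 1.20 and 1.72 ± 1.01 per 10000 (SD, n = 3 each; exact permutation p = 0.7). Grid1 had 0, 0 and 2 peaks with vehicle and 0, 3 and 4 with estradiol, or 0.325 ± 0.562 and 1.47 ± 1.27 per 10000 (SD, n = 3 each; exact permutation p = 0.4). The estradiol mean was thus higher at Grid1 and lower at Grin2b, in each case with overlapping groups. The Grin2b difference of -2.49 per 10000 rested on vehicle replicate 1, the shortest list, and was -0.019 without it, while that of Grid1 ran from 0.738 to 1.88 over the left-out libraries (0.738 without estradiol replicate 3 and 1.88 without estradiol replicate 1). With 13494 genes tested, every one of the 6 members that had a peak had a Benjamini-Hochberg adjusted p of 1, and with 3 libraries against 3 no gene could pass. Of those 13494 genes, 2.97% had every estradiol library above every vehicle library and 2.04% the reverse. None of the 6 members did either, and a gene needs a peak in every library of 1 group to do so.

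A single region in the 8 genes had a peak in all 3 estradiol libraries and in no vehicle library, against 0.737% of all regions. It lies inside Grin2b at chr6:135958981-135959166, 246 kb from the end of lower coordinates, near the middle of the gene. In the 3 estradiol libraries, in replicate order, the peaks reached −log10 q of 5.01, 2.53 and 9.39, with folds over the caller's background of 5.93, 4.26 and 8.52 from 6, 4 and 11 fragments. The peak of replicate 2 stood at the smallest summit that was called, and the region no longer met the rule when −log10 q had to be at least 3. It also failed when each library's peaks had to cover 50% of the region. In the length class of Grin2b, 34 of the 415 genes (8.19%) had at least 1 such region, against 1.09% of all genes. Whether length itself accounts for this was not tested. No region of the 8 genes had a peak in all 3 vehicle libraries and no estradiol library, against 0.112% of all regions. That rule needs a peak in vehicle replicate 1, which had the shortest list.

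The wider rule of at least 2 of 3 estradiol libraries and no vehicle library took in 5 of the 49 regions, against 3.71% of all regions. The reverse rule took in 1, against 2.6% of all regions. Of the 5, 3 were at Grin2b, 1 at Grin2a and 1 at Grid1, and all 5 had peaks in estradiol replicates 2 and 3. Besides the region above, Grin2b had one at chr6:135662410-135662577, 50.6 kb outside the gene on its side of lower coordinates. Estradiol replicates 2 and 3 gave −log10 q of 6.97 and 13.2 there, from 8 and 14 fragments, the latter the second highest peak at any of the 8 genes. Another peak of estradiol replicate 2, with 6 fragments, lay 301 bp away. The remaining Grin2b region, at chr6:135828013-135828119, had −log10 q of 3.18 and 5.80. A neighbour 390 bp away, at chr6:135827541-135827622, had peaks in estradiol replicate 2 (4.31) and vehicle replicate 3 (2.25), so that joining the pair would end its status.

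At Grin2a (chr16:9567901-9996083) the region at chr16:9901109-9901273 was found in estradiol replicate 2 (−log10 q 7.51, 8 fragments) and replicate 3 (4.61, 7 fragments). The Grin2a region at chr16:9757076-9757153 was the 1 with the reverse pattern, found in vehicle replicate 2 (3.68, 5 fragments) and vehicle replicate 3 (5.24, 7 fragments). Both lie inside the gene. At Grid1 (chr14:34820003-35583387) the region at chr14:35603914-35604009, 20.5 kb outside the gene on its side of higher coordinates, was found in estradiol replicate 2 (4.73, 5 fragments) and replicate 3 (4.90, 6 fragments).

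**Figure D3:**
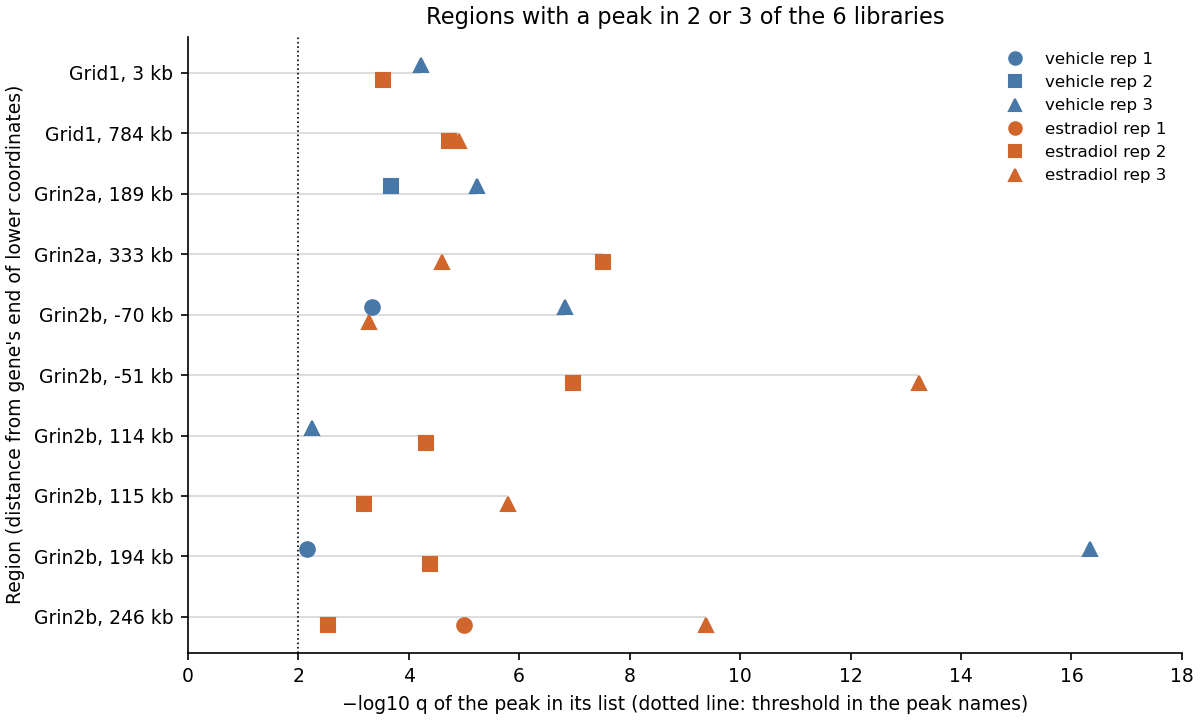
Height of each peak as −log10 q within its list (x axis) for the 10 regions with a peak in 2 or 3 libraries (y axis, named by gene and distance in kb from its end of lower coordinates); blue is vehicle, orange is estradiol, symbols mark the replicates and the dotted line the threshold. The highest peaks are those of vehicle replicate 3 at 194 kb in Grin2b (16.3) and of estradiol replicate 3 at -51 kb (13.2).

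The highest peak at any member belonged to a vehicle library. At chr6:135907680-135907800, inside Grin2b, vehicle replicate 3 had −log10 q of 16.3 and a fold of 11.7, from 16 fragments, within the top 8.79% of its list. The same region had a peak in vehicle replicate 1 (2.17, 5 fragments) and in estradiol replicate 2 (4.39, 6 fragments). A further region, at chr6:135643031-135643139, 70.1 kb outside Grin2b, was found in vehicle replicate 1 (−log10 q 3.33), vehicle replicate 3 (6.83) and estradiol replicate 3 (3.29). Next to it, with gaps of 30 and 1 bp, lay a region of vehicle replicate 2 and a region of estradiol replicate 3, so this stretch held peaks of all 3 vehicle libraries and 1 estradiol library.

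Most member regions rested on 1 library and few fragments. Of 49, 39 (79.6%) had a peak in 1 library, 7 in 2 and 3 in 3, against 58.9% in 1 library over all regions. None had peaks in all 6 libraries, against 7.27% of all regions, and 3 had peaks in at least 3, against 27.1%. The 39 peaks in regions of 1 library had 4 to 7 fragments, with a median of 5. The 23 peaks in shared regions had 4 to 16, with a median of 6. Over the 62 member peaks 66.1% had at most 5 fragments, against 41.3% of all 82442 peaks, and 4.84% (3 peaks) had at least 10, against 22.0% of all peaks. In each library the median member peak ranked in the lower part of its list, at percentiles of 24.4 to 41.0.

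Few of the regions lay at gene ends. Only 3 of the 49 regions (6.12%) were within 1 kb of where a protein-coding gene begins or ends, against 24.2% of all regions. They were the Grin1 region, a Grin2b region of vehicle replicate 3 that starts 57 bp beyond the end of higher coordinates, and a Grin3a region of vehicle replicate 3 that lies 228 bp inside that end. The gene table gives no strand for Grin2b and Grin3a, so which of their ends is the start was not used here. Over the regions farther than 1 kb from any gene end, 78.3% of 46 member regions and 67.8% of all 29839 were in 1 library, and 0 and 2.69% in all 6. Peaks in at least 3 libraries were found at 6.52% and 17.7% of them. In all, 34 member regions lay inside a gene and 15 in flanks. Most were at Grin2b (25), Grin2a (13) and Grid1 (7), whose spans are 460, 428 and 763 kb. The share at gene ends was not compared with genes of like length.

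**Figure D4:**
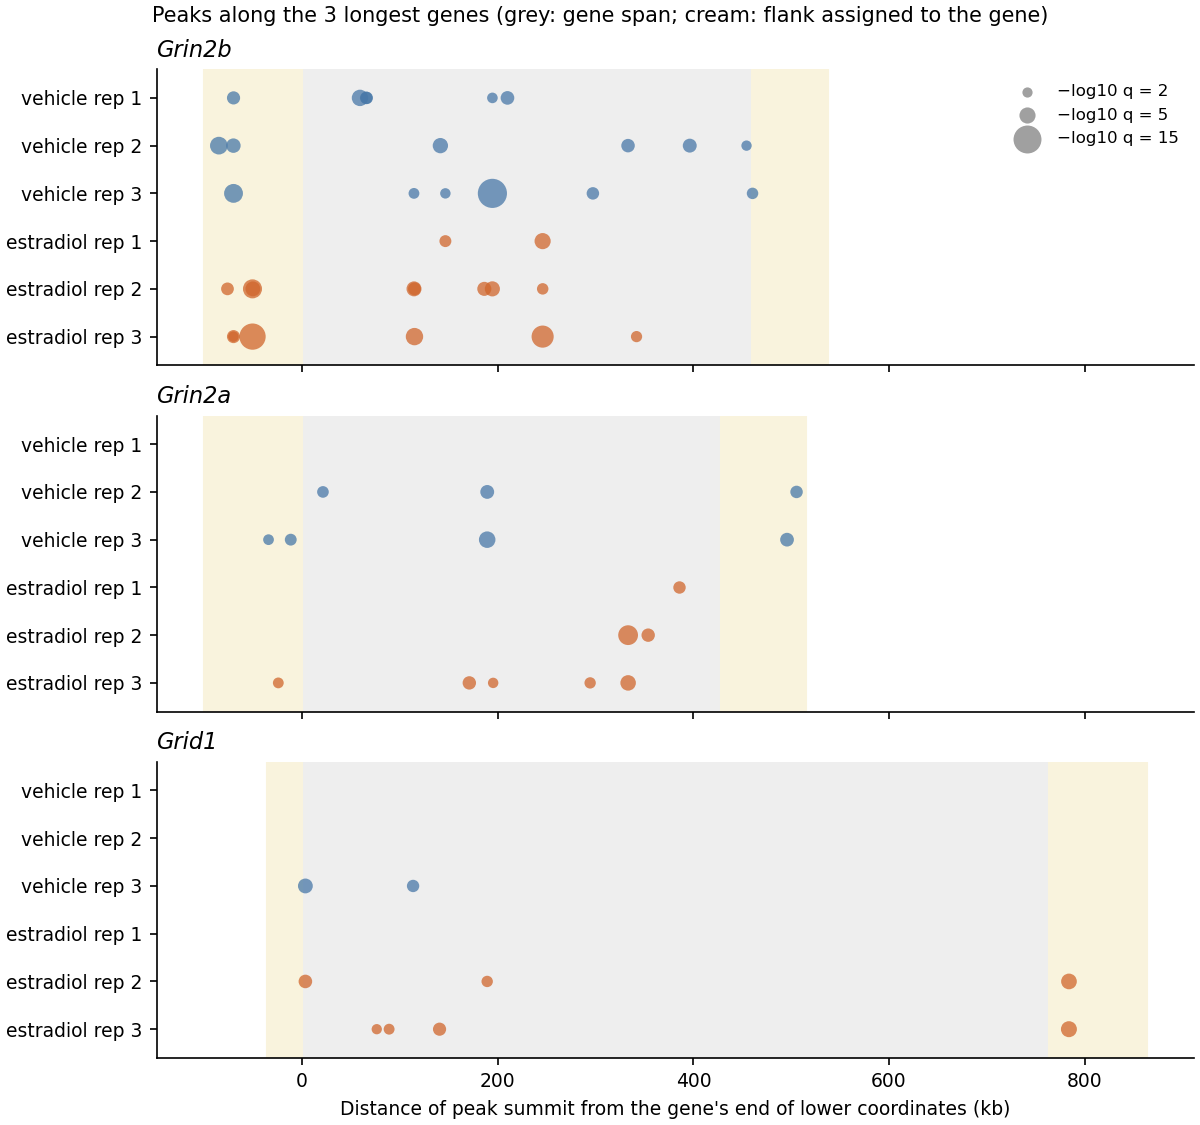
Peak summits along Grin2b, Grin2a and Grid1 in each library (rows); the x axis is the distance in kb from the gene's end of lower coordinates, point area grows with −log10 q, grey marks the gene span and cream the flank assigned to it. Grin2b has peaks along its span from 12.8% of its length onwards, while 6 of the 7 Grid1 regions lie in the first 24.8% of the span and the last lies beyond the other end.

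The genes differed in where their peaks lay. Inside Grin2b the longest stretch without a region was the first 59.1 kb, or 12.8% of the span, from the end of lower coordinates. Inside Grin2a it was 150 kb, or 34.9%. The 6 regions inside Grid1 all lay in its first 24.8%, counted from the end of lower coordinates, and the remaining 574 kb (75.2% of the span) had none. The region nearest that end, at chr14:34823298-34823362, had peaks in vehicle replicate 3 (−log10 q 4.23) and estradiol replicate 2 (3.54), and the other 5 inside were in 1 library each. At Grin2a, 6 regions had peaks in vehicle libraries alone and 7 in estradiol libraries alone, with none in both groups. At Grin2b these numbers were 13, 9 and 3. Over the 49 member regions they were 23, 22 and 4, against 32.1%, 33.1% and 34.8% of all regions, and a region in 1 library cannot be in both groups. Farther than 1 kb from any gene end they were 21, 21 and 4 of 46, against 36.2%, 38.4% and 25.4% of all such regions. The 4 Grin2b regions found in vehicle replicate 1 alone had 5 to 7 fragments.

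The remaining members had little. Grin3a (chr4:49661611-49846023), whose GluN3A subunit lowers calcium entry, had 2 regions, both in vehicle replicate 3 alone, with −log10 q of 2.70 and 4.03. Grin2c (chr11:115249169-115267297), known from cerebellar granule cells, had 1 region at chr11:115251067-115251109, in vehicle replicate 1 alone, with 3.33 from 5 fragments. Grin2d (chr7:45831883-45871194), whose subunit gives slowly closing channels, and Grin3b (chr10:79970397-79977190) had none. For Grin2d and Grin3b neighbouring genes left little flank, at most 0.823 kb on either side. The farthest region inside the 100 kb limit was 85.1 kb from Grin2b (vehicle replicate 2, −log10 q 6.02). The nearest outside was 118 kb from Grin2b (1 estradiol library, 4.73). A limit of 200 kb would add regions, most with a peak in 1 estradiol library alone, which are described under other observations.

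Of 26 genes for partners of these receptors, 24 had regions, 159 in all, with a median of 3 per gene. The list held scaffold proteins (9 genes), kinases and other signalling proteins (8), genes of D-serine and glycine handling (4), and cerebellins and neurexins (5). None of the 159 regions was in all 3 estradiol and no vehicle libraries, and none the reverse. The most regions were at Dlg2, a postsynaptic scaffold, with 37, at Nrxn3, a presynaptic neurexin gene, with 34 and at Shank2, another scaffold, with 17. These spans are 1973, 1612 and 448 kb, and genes of their lengths had medians of 15, 13.5 and 6. Regions with peaks in all 6 libraries were found at 4 of the 26 partner genes and at none of the 8 receptor genes, against 13.3% of all protein-coding genes, and the difference between these lists was not tested. Per 10000 listed peaks, 3 of the 24 partner genes with a region had every estradiol library below every vehicle library, against 2.04% of the 13494 genes with a peak, and 0 had the reverse, against 2.97%. The 3 were Shank2 and, named after their values were seen, the scaffold gene Shank1 and Ptk2b, a calcium-activated kinase. Their numbers of peaks overlapped between the groups. In replicate order, Shank2 had 3, 6 and 12 peaks with vehicle and 4, 5 and 6 with estradiol. Shank1 had 1, 1 and 3 with vehicle and 0, 1 and 1 with estradiol. Ptk2b had 1, 2 and 3 with vehicle and 1 in each estradiol library, so the separation appeared once counts were divided by list length. Either pattern needs a peak in every library of 1 group, which genes with few peaks cannot have. All protein-coding genes had a median of 1 region, against 3 for the partners, so the shares over all genes are not like for like.

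Among 347 genes with at least 10 regions, the counts over the 6 libraries most like those of Grin2a, by Euclidean distance of peaks per 10000, were at Ankrd55 (0.877) and Camk1d (0.974). Those nearest to Grin2b lay farther off, at Bahcc1 (4.36) and Pde1c (4.55). The distance is not scaled for the level of a gene. Grin2b had 11.1 peaks per 10000 in vehicle replicate 1, the shortest list, and Grin2a had at most 2.85 in any library.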

How the data were processed

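The deposited lists hold ERα CUT&RUN peaks of 6 libraries, 1 list per library. Per the submitters' processing notes, cutadapt, Bowtie2, Picard, SAMtools, deepTools and MACS2 were used on build mm10, and versions and roles are not given in the sources used here. Whether a control library entered the calls is likewise not given there. Peak names in the deposited files carry a q of 0.01. Per the values of the deposited files, each peak has a score (10 times −log10 q, rounded down), a fold (ratio) over the caller's background, and −log10 p-value and −log10 q-value. These are the authors' values and serve here to describe and rank peaks within a list.

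Summit fragments were estimated by assuming fold = (n + 1)/(background + 1) and a Poisson upper tail. This matched −log10 p within 0.0002 for at least 99.9886% of peaks in each library. Peaks of the 6 lists were merged at 1 bp. Gene spans came from a RefSeq table of GRCm38.p6 without strand or exons, in which all 8 members and 26 of 26 partners matched (some planned partners are not reported here); the strand of Grin1 is that of its promoter window. A peak inside several spans counted for each. Analyses ran in Python 3.11.15 with SciPy 1.17.1.

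Differences of group means were tested by exact permutation of the 6 libraries (3 against 3, two-sided), also per gene over all genes with a peak and with Benjamini-Hochberg adjustment, and the scripts were tested on simulated data. The members and lists were chosen with earlier results of these data known. Described singly are regions in at least 3 libraries or of 1 group, and each gene's highest; partners are named if among the 3 with the most regions or with a region of 1 group alone in all its libraries; Shank1 and Ptk2b are outside this rule. Alternatives were a stricter q, other windows, summits, lists of equal length, other merging and each library left out. Replicates 1 and 2 alone, replicate 3 alone and a replicate block were also used.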

Additional observations from a re-analysis of the deposited data

How the results depend on the processing

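The exact permutation p was 0.3 to 1 for the number of peaks and 0.6 to 1 per 10000 listed peaks over the settings run; since none could give a p under 0.1, these values say nothing about stability. Leaving out each library in turn gave differences of -1.5 to 4.5 peaks and of -3.14 to 0.465 per 10000, and -0.345 to 0.754 per 10000 for Grin2a. The sign also turned with lists of equal length (-1.33 peaks) and, per 10000, in replicate 3 alone (1.73) and without Grin2b (0.783, a setting chosen after seeing the data). The cause was not tested. The count of regions in all 3 estradiol libraries alone was 0 with −log10 q of at least 3, under the 50% cover rule and with lists of equal length, 5 when 2 of 3 libraries sufficed, 14 in replicate 3 alone, where 28.1% of all regions met the rule, and 1 to 5 over the left-out libraries (5 without estradiol replicate 1, where 2.70% of all regions met the rule). The reverse count was 1 when 2 of 3 sufficed, 13 in replicate 3 alone (38.7% of all regions) and 0 to 1 over the left-out libraries (1 without vehicle replicate 1, against 2.29% of all regions). With a library left out fewer lists have to meet these rules, but the shares also differed by which library it was. For the reverse rule the share of all regions was 2.29% without vehicle replicate 1, the shortest list. It was 0.21% to 0.402% without any other library. No member region had a peak in all the libraries used with the stricter q, the cover rule, wider merging, lists of equal length, the gene span alone or a library left out; in replicate 3 alone 1 region, at Grin2b, was in both. The share of genes in its length class with fewer regions than Grin2b was 96.1% to 99.5% over 10 settings chosen after seeing the data. A replicate block on the replicate number left the differences of 0.667 peaks and -1.71 per 10000 as they were, with paired exact permutation p of 0.75 and 1 (smallest possible 0.25). Deviations of same-numbered libraries correlated across 13494 genes at 0.12, 0.026 and 0.14, and those of differently numbered libraries at -0.122 to 0.040. Whether same-numbered libraries share more than a number was not tested. List length rose with replicate number in both groups, so replicate number and list length cannot be told apart here. Vehicle library 2 resembled estradiol library 3 slightly more (0.040) than its own number.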

Other observations

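Between 100 and 200 kb from the genes, with a member still the nearest protein-coding gene, lay 7 further regions, of which 4 were at Grin2b, 2 at Grin2a and 1 at Grin3a. Of these, 6 had peaks in estradiol libraries alone, against 33.1% of all regions, and 1 had peaks in both groups, against 34.8%. All but 1 of the 6 rested on 1 estradiol library each, and a region in 1 library cannot be in both groups. The highest summits of the 6 held 4 to 6 fragments. The 2 at Grin2a, chr16:9379752-9379890 and chr16:9379971-9380003, lay close together. The 7 were looked at after the data were seen, and the share was not tested. The region in both groups, at chr6:135559640-135559744, 153 kb from Grin2b, had the highest −log10 q of the 7, at 7.97 from 8 fragments. The Grin2b region at chr6:135582764-135582854, 130 kb away, had peaks in 2 estradiol libraries, the higher with −log10 q of 3.82 from 5 fragments. These regions were outside the distance that defined the members and entered none of the counts above.

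Estradiol replicates 2 and 3 had 5 member regions in common, the most of any pair of lists. They are the same 5 regions as those described above with at least 2 of 3 estradiol libraries and no vehicle library. Those lists shared 8010 regions over the genome. Vehicle replicate 3 had 3 member regions in common with estradiol replicate 2, of 8502 shared over the genome, 2 with vehicle replicate 1, of 3963, 1 with vehicle replicate 2, of 8900, and 1 with estradiol replicate 3, of 9594. The remaining pairs had 0 or 1 member region in common.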
